A study of Mus musculus with 12 samples.

Results

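T cell receptor (TCR) libraries of tumor-draining lymph nodes (tdLNs) from mice given BF10 were compared with those from mice given αCSF1R, 1 pooled library a side and 2 of the 12 libraries of the series. The pair was taken by its treatment labels and because both libraries have few reads behind each UMI and a like number of TRAC for each TRBC UMI, so those likenesses are not results. The 2 libraries listed 194709 clonotypes for BF10 and 197970 for αCSF1R, 392679 of the 1502315 listed in the series. The study set a fusion protein beside its subcomponents and sequenced TCRs of tumors, spleens and tdLNs under 4 treatments. All mice were wild type and carried a syngeneic murine head and neck cancer. αCSF1R is an antibody that blocks CSF1R, the receptor on which macrophages depend for survival, and BF10 is that antibody with human IL-10, a cytokine that acts on both macrophages and CD8+ T cells, fused to its C terminus. BF10 mice thus also received the CSF1R-blocking arm, and the comparison asks what the attached IL-10 goes with. The labels give 3 doses of 30 mg/kg at intervals of 3 days for every treatment, whereas the methods scale the dose to molecular weight, with more BF10 than αCSF1R by mass. Cells were taken with magnetic beads for CD8, and material of 3 mice was mixed into each library. Control IgG and IL-10-Fc tdLN libraries, which share no library with the pair, served as a yardstick for how far 2 pooled nodes differed. They differ in treatment too, also by IL-10, so the yardstick does not give the spread between nodes treated alike.

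A TCR is a pair of chains, α with β on most T cells and γ with δ on a smaller population. Each chain gene is assembled in the thymus from V and J segments, with a D segment in β and δ, and bases are trimmed and added where segments join. The joint encodes CDR3, the loop that contacts the presented peptide, so V and J usage describes how segments were assembled and which receptors survived selection, whereas CDR3 can mark the descendants of a single cell. Receptors with few added bases arise often and recur among mice. Here TRAC, TRBC, TRGC and TRDC name the α, β, γ and δ chains by their constant region. A clonotype here joins the V and J region of a chain to its CDR3 amino acid sequence unless nucleotides are named, and its amount is the number of UMIs (tags of single cDNA molecules) with at least 3 reads.

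The CDR3 sequences below carry the main contrasts, since they are the largest chains of either node and chains at high level in both. Each runs 5′ to 3′ from the first cysteine codon, with germline V and J bases in lower case and the bases between them, whether D segment or added, in capitals. The most abundant β clonotypes of the BF10 node were these.
BF10 Trbv12-1 with Trbj2-1: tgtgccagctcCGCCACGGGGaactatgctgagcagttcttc
BF10 Trbv13-2 with Trbj2-1: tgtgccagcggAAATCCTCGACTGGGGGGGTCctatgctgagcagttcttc
BF10 Trbv12-2 with Trbj2-4: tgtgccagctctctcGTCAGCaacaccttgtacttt
The most abundant β clonotypes of the αCSF1R node were the next 3, of which the last has no base between V and J.
αCSF1R Trbv3 with Trbj2-7: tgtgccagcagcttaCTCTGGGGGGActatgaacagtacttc
αCSF1R Trbv3 with Trbj2-7, second: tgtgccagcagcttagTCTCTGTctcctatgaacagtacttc
αCSF1R Trbv16 with Trbj2-4: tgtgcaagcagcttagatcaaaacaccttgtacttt
Next come the β clonotype with the highest level in both nodes and 2 others at high level in both. Each is shown in the nucleotide form with the most UMIs over the pair, which has 1 to 5 bases between V and J. Another at high level in both, Trbv3 with Trbj1-1, had 9 such bases and is not printed. The Trbv17 form shown had 26 of 51 UMIs in the BF10 node but only 3 of 43 in the αCSF1R node.
Shared Trbv3 with Trbj2-7: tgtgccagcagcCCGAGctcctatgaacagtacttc
Shared Trbv17 with Trbj1-1: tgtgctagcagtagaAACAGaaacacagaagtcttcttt
Shared Trbv16 with Trbj2-4: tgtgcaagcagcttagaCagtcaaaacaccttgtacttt
Among α chains, the chain of invariant NKT cells and 2 other chains without an added base were large in both nodes, and each node also had a large chain that its partner did not list.
Shared Trav11 or Trav11d with Traj18: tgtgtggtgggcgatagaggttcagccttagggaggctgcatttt
Shared Trav14-2 or Trav14n-2 with Traj22: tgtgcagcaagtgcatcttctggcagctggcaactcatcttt
Shared Trav10 with Traj43: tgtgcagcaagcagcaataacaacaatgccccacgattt
BF10 Trav21-dv12 with Traj52: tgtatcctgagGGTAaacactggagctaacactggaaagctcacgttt
αCSF1R Trav14d-1 with Traj23: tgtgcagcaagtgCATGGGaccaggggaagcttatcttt
The largest γ and δ chains were the same in all 4 nodes, and their joints were not split into germline and added bases.
Shared Trgv6 with Trgj1: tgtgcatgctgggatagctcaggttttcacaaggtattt
Shared Trdv4 with Trdj2: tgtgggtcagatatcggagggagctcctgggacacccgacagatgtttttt

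The BF10 node held 277580 UMIs and the αCSF1R node 290776, and the 4 nodes spanned 238672 to 340888. UMIs with at least 7 reads made up 8.00% and 9.94% in the pair, against 38.7% in control IgG and 33.5% in IL-10-Fc, so the 2 pairs of nodes also differ in read coverage. TRBC took 73.5% of the BF10 and 72.4% of the αCSF1R UMIs, with 204079 and 210616 UMIs, and TRAC made up 20.1% and 22.6%, with 55901 and 65745 UMIs. In control IgG and IL-10-Fc, TRBC took only 52.2% and 54.3%, with 124488 and 185084 UMIs. TRAC made up 42.6% and 40.2% there, with 101598 and 137078 UMIs. The depths of the pair put the smallest share that could be seen, taken as 3 UMIs, at 0.00147% and 0.00142% of TRBC and at 0.00537% and 0.00456% of TRAC. Without a second library of either treatment there is no replicate check and no test. The 95% intervals (Wilson for shares, log-scale for ratios) cover counting error only, and they are too narrow even for that where several UMIs came from one cell. The labels give the cell type of the nodes as CD8 T cells, although their titles, unlike those of the tumors and spleens, do not name CD8. CD8 itself is not measured by these libraries, so the cell type was checked only against γδ and invariant α chains, which are given at the end.

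V gene usage of β chains differed by small amounts between the 2 nodes. No gene had shares that stood at 5 to 4 or more in either direction, the ratio used here to call a gene. The TRBV locus lies on chromosome 6 (coordinates are of GRCm38). Trbv16 (chr6:41151740-41152230) was the most used gene, with 9.52% of TRBC UMIs for BF10 and 10.1% for αCSF1R, followed by Trbv19 with 8.78% and 9.74% and Trbv3 with 8.82% and 9.23%. Trbv29 held 8.02% and 7.84%, Trbv13-2 held 6.58% and 6.36%, and Trbv1 held 5.99% and 6.22%. The 3 leading genes were thus each somewhat less used in the BF10 node, by the widest margin for Trbv19, whose ratio of shares (BF10 over αCSF1R) was 0.901 (95% interval 0.884 to 0.919). Trbv3 was at a ratio of 1.001 (0.973 to 1.03) when clonotypes of 1 UMI were left out. Of the 22 TRBV genes with at least 0.1% of UMIs in either node, 0 were called at this ratio, 0% of those compared, against 4.55% between control IgG and IL-10-Fc. The usage distance, the percent of UMIs that would have to change gene for the nodes to match, was 2.92% ± 0.304 (95% half-width), where counting alone would give 0.542%. Between control IgG and IL-10-Fc it was smaller, 2.07% ± 0.359, although 1 gene was called there, the rare Trbv24 with 0.168% and 0.115% of UMIs.

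Trbv14 (chr6:41135145-41135616) stood highest in the BF10 node relative to αCSF1R. It held 3.57% of TRBC UMIs for BF10, 3.01% for αCSF1R, 3.39% in control IgG and 3.65% in IL-10-Fc. The αCSF1R node was the low one of the 4, and the ratio of the pair was 1.19 (1.15 to 1.23). The ratio was as high without large clonotypes or with stricter counting: it was 1.18 with each clonotype counted once, 1.20 without the 100 largest clonotypes of each library, 1.17 with clonotypes of at least 2 UMIs and 1.22 with UMIs of at least 7 reads. Trbv14 was more used with 10 of the 12 Trbj genes, and with 9 of them the interval of the ratio lay above 1. Its ratios ran from 0.856 with Trbj1-3 to 1.58 with Trbj1-6, and with its most frequent partner, Trbj2-7, Trbv14 had 1679 UMIs in the BF10 and 1329 in the αCSF1R node. This breakdown by J gene was made after the ratio of Trbv14 was seen.

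Of the other TRBV genes with high ratios, 1 moved without the large clonotypes. Trbv12-1 (chr6:41113550-41114067) held 3.84% and 3.38%, a ratio of 1.14 (1.101 to 1.172) that was 1.07 without the 100 largest clonotypes of each library. Trbv13-1 held 5.81% and 5.38%, and Trbv12-2 held 4.36% and 4.04%, with a ratio of 1.08 for each. At the low end, Trbv30 (chr6:41281376-41281990), the last TRBV gene before the D and J segments, held 0.355% and 0.440%, a ratio of 0.807 (0.732 to 0.889) that was 0.90 (0.802 to 1.01) with each clonotype counted once. Trbv24, with 199 and 245 UMIs, had a ratio of 0.838 (0.695 to 1.01), which counting error spans. Trbv2, with 2.18% and 2.50%, had a ratio of 0.872, and Trbv23, with 0.795% and 0.910%, a ratio of 0.874.

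**Figure D1:**
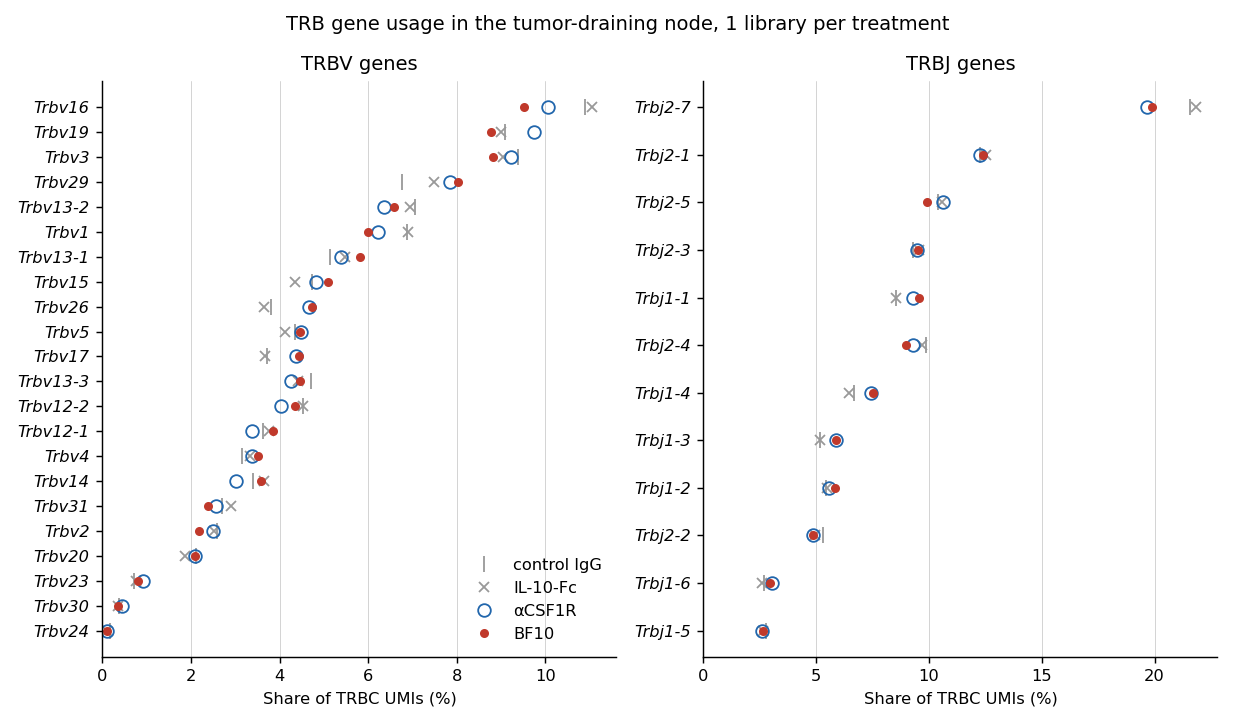
Share of TRBC UMIs (%, x axis) of each TRBV gene (left) and TRBJ gene (right) with at least 0.1% of UMIs, in 1 library per treatment: BF10 (filled circles), αCSF1R (open circles), control IgG (bars) and IL-10-Fc (crosses). Filled and open circles lie close together for every gene, and for Trbj2-7 both (19.9% and 19.7%) lie below control IgG (21.6%) and IL-10-Fc (21.8%).

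Joining segments of the β chain differed still less between the 2 nodes. Trbj2-7 (chr6:41543810-41543856) was the leading gene with 19.9% for BF10 and 19.7% for αCSF1R, then Trbj2-1 with 12.4% and 12.2%. The only ratio that was more than 5% away from 1 was that of Trbj2-5, with 9.91% and 10.6% (0.934, 0.917 to 0.951). Trbj2-3 held 9.52% and 9.45%, Trbj1-1 held 9.57% and 9.31%, and Trbj2-4 held 9.004% and 9.278%. Trbj1-4 (7.54% and 7.42%), Trbj1-3 (5.86% and 5.89%), Trbj2-2 (4.85% and 4.88%), Trbj1-6 (2.97% and 3.02%) and Trbj1-5 (2.65% and 2.62%) had intervals of the ratio that span 1. Trbj1-2 had the highest ratio, with 5.85% and 5.59% (1.05, 1.02 to 1.07). Of the 12 genes 0 were called (0% of those compared, and 0% between control IgG and IL-10-Fc), and the usage distance was 1.09% ± 0.287 against 0.978% ± 0.319 for control IgG and IL-10-Fc.

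The nodes paired off in their use of β gene segments. From BF10 or αCSF1R to control IgG or IL-10-Fc, the TRBV distance was 4.25% to 4.93% and the TRBJ distance 3.02% to 3.67%, larger than within either pair. The Trbj1 cluster, which lies upstream of Trbj2, held 34.5% of TRBC UMIs for BF10 and 33.9% for αCSF1R, against 31.2% in control IgG and 30.9% in IL-10-Fc. For TRAV families the distances between the pairs were 3.92% to 5.41%, and for TRAJ genes 2.45% to 3.12%. The BF10 and αCSF1R nodes have in common the CSF1R-blocking arm, the thin read coverage and the larger share of TRBC UMIs. These cannot be told apart here.

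Pairs of V and J genes showed where single clonotypes weighed on usage. Of 219 pairs with at least 0.1% of UMIs in either node, 17 were past the ratio of 5 to 4 (7.76%), 11 higher in BF10 (5.02%) and 6 lower (2.74%), whereas 10.6% of pairs were past it between control IgG and IL-10-Fc. Trbv14 was the V gene of 6 of the 11 higher pairs. Without the largest clonotype of each library in each pair, an alternative chosen after seeing the data, 11 of the 17 were still past the ratio. The pairs described here were likewise singled out after their values were seen. Trbv12-1 with Trbj2-1 had 1537 UMIs for BF10 and 1140 for αCSF1R (ratio 1.39), of which 361 belonged to the largest clonotype printed above. Without that clonotype and the largest αCSF1R one of the pair of genes, of 13 UMIs, the ratio was 1.08. Trbv12-2 with Trbj2-4 went from 1.46 to 1.15 without clonotypes of 215 UMIs in BF10 and 12 in αCSF1R, and Trbv3 with Trbj1-6 from 1.59 to 1.17 without clonotypes of 84 and 7 UMIs. Trbv14 with Trbj2-7, by contrast, had a ratio of 1.30 with its largest clonotypes and 1.29 without them. The lowest ratio was that of Trbv30 with Trbj2-5, with 72 UMIs for BF10 and 234 for αCSF1R (0.318, 0.244 to 0.414), and without clonotypes of 3 UMIs in BF10 and 78 in αCSF1R it was 0.456.

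α chains were compared by TRAV family, because an assignment named a single member for only 69.7% of TRAC UMIs in BF10 and 70.6% in αCSF1R. The locus, on chromosome 14, holds duplicated V genes whose copies are marked d and n. Trav14 was the largest family, with 16.9% of TRAC UMIs for BF10 and 17.2% for αCSF1R. Trav7 held 14.8% and 16.5%, Trav6 held 13.0% and 12.6%, and Trav12 held 10.77% and 10.04%. Trav7 thus had the widest difference of any family, −1.69 percentage points for BF10 minus αCSF1R (ratio 0.898, 0.874 to 0.922), with 16.8% in control IgG and 16.6% in IL-10-Fc. With UMIs of at least 7 reads its ratio was 0.978 (0.878 to 1.09). Trav13 held 7.17% and 6.68%, and Trav9 held 6.38% and 6.78%. Of 19 families 0 were called (0%), against 10.5% between control IgG and IL-10-Fc, and the usage distance was 2.85% ± 0.561 against 2.19% ± 0.405.

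Among the families with ratios farthest from 1, several had other ratios without the large clonotypes. Trav21, with 605 and 602 UMIs, had a ratio of 1.18 (1.06 to 1.32), which was 1.005 with each clonotype counted once and 1.03 without the 100 largest clonotypes. Its clonotype with Traj52, printed above, had 74 of those 605 UMIs. Trav1, the family of the chain of MAIT cells, had 145 UMIs in each node and a ratio of 1.18 that turned to 0.971 without the 100 largest clonotypes and to 0.905 with each clonotype counted once. Trav4 had a ratio of 1.08 that was 1.02 (0.965 to 1.07) without the 100 largest clonotypes, and Trav13 one of 1.07 that was 1.04 (0.998 to 1.08). On the low side, Trav11 had 294 and 398 UMIs (0.869, 0.748 to 1.01) and Trav8 held 4.21% and 4.59% (0.918, 0.871 to 0.968), which was 0.975 (0.924 to 1.03) without the 100 largest clonotypes. Trav2, with 111 and 140 UMIs, had a ratio of 0.932 that counting error spans and that was 1.03 with each clonotype counted once.

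TRAJ genes, which spread over a long array downstream of the V genes, showed no gene past the ratio of 5 to 4 when all UMIs were counted. Successive rearrangements of the same α locus move toward Traj genes with lower numbers, so the mean Traj number describes how far along the array cells had joined. It was 29.2 (29.1 to 29.3) for BF10 and 29.1 (29.0 to 29.2) for αCSF1R. Genes numbered above 30 held 46.3% and 46.1% of TRAC UMIs. Traj31 was the most used, with 6.54% and 6.61%, and Traj22 held 6.24% and 5.92%. Traj23 (5.58% and 5.61%), Traj30 (4.82% and 4.83%), Traj37 (4.29% and 4.45%) and Traj27 (4.12% and 4.02%) differed by less than counting error. Of 40 genes 0 were called (0% here and 0% between control IgG and IL-10-Fc), and the usage distance, 2.10% ± 0.560, was the smaller one against 2.46% ± 0.400. Stricter counting moved both: with UMIs of at least 7 reads the distance was 5.52% (3.51% to 7.52%) and 8 genes were past the ratio, and with clonotypes of at least 2 UMIs it was 4.45% (3.66% to 5.25%) with 5 genes.

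The highest TRAJ ratios belonged to Traj38 (chr14:54180574-54180635), with 549 and 534 UMIs (1.21, 1.07 to 1.36), and Traj53, with 664 and 679 UMIs (1.15, 1.03 to 1.28). With each clonotype counted once the ratio of Traj38 was 1.07 (0.929 to 1.22). Traj58 had a ratio of 1.11 (0.981 to 1.251) and Traj52 one of 1.11 (1.01 to 1.21), and each turned its direction under 2 alternatives. Traj58 was at 0.837 (0.537 to 1.305) with UMIs of at least 7 reads and at 0.933 (0.769 to 1.13) with clonotypes of at least 2 UMIs. Traj52 was at 0.931 (0.847 to 1.02) without the 100 largest clonotypes and at 0.970 (0.869 to 1.08) with each clonotype counted once. The lowest ratios were 0.868 (0.809 to 0.932) for Traj42, with 2.33% and 2.69% of UMIs, and 0.894 (0.794 to 1.01) for Traj24. Traj6 and Traj56 had ratios of 0.908 and 0.909, with 1.78% and 1.63% of UMIs for BF10 and 1.956% and 1.792% for αCSF1R, and that of Traj6 was 1.01 (0.765 to 1.34) with UMIs of at least 7 reads.

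**Figure D2:**
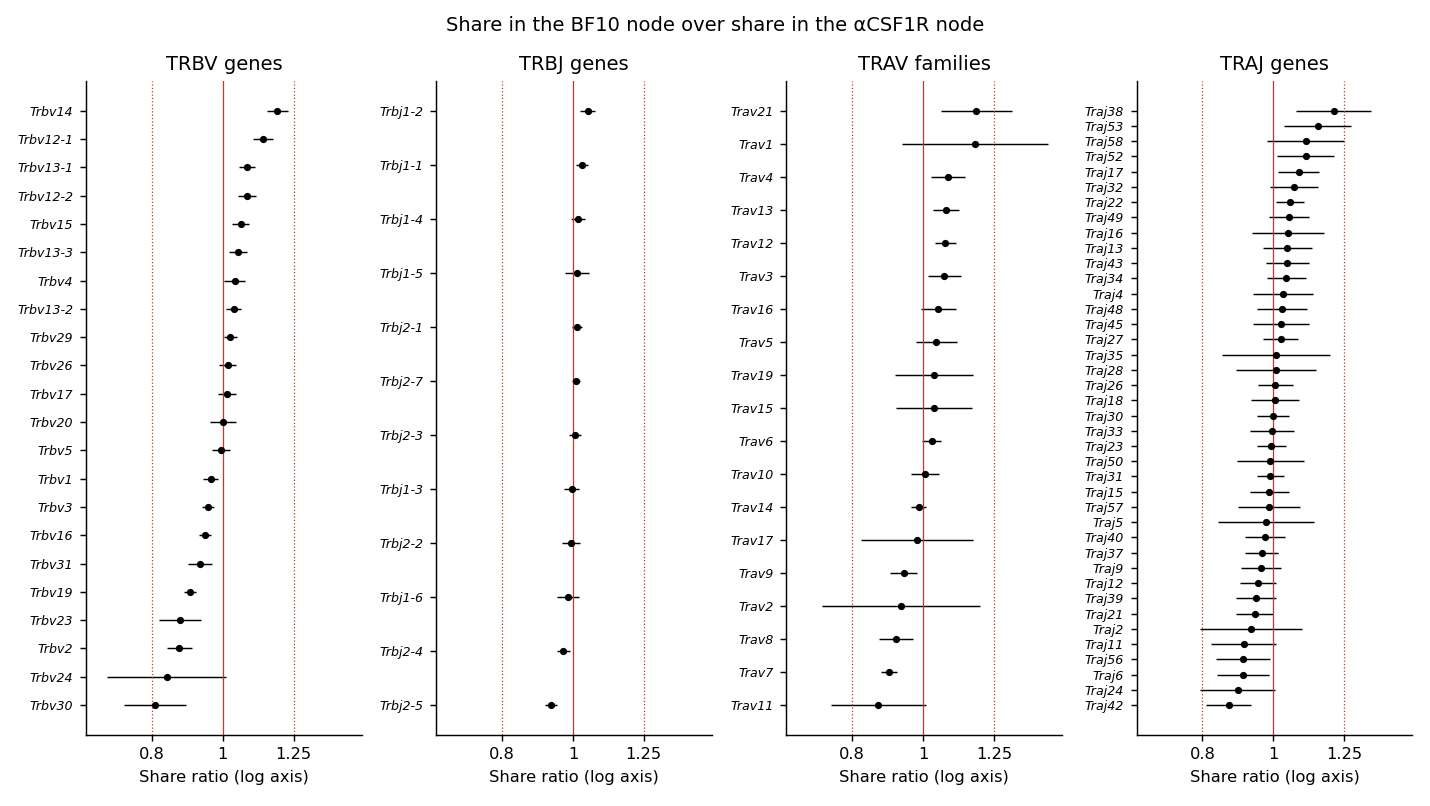
Share of chain UMIs in the BF10 node over the share in the αCSF1R node (log axis) for each TRBV gene, TRBJ gene, TRAV family and TRAJ gene with at least 0.1% of UMIs, with 95% counting intervals. The solid line marks a ratio of 1 and the dotted lines ratios of 4 to 5 and 5 to 4, and every point lies between the dotted lines, from 0.807 (Trbv30) to 1.21 (Traj38).

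CDR3 length did not differ detectably between the nodes. β CDR3s had a mean of 13.84 residues (SE 0.00794) for BF10 and 13.82 (SE 0.00646) for αCSF1R, a difference of 0.0134 (−0.00662 to 0.0335). α CDR3s had means of 13.54 and 13.52 residues, a difference of 0.0254 (−0.000741 to 0.0515). With V and J pairs held at the mean usage of the 2 nodes, the differences were 0.0179 and 0.0129. Both distributions peaked at 14 residues, with 31.4% and 31.6% of β and 30.8% and 31.0% of α UMIs. At 15 residues BF10 had the slightly larger share, with 20.9% against 20.5% for β and 14.5% against 14.0% for α chains.

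The mean number of bases at the joint did not differ detectably. β chains without any held a smaller share of UMIs in the BF10 node, but were about as frequent in both nodes by clonotype. Bases between germline V and J numbered 9.73 on average for BF10 and 9.68 for αCSF1R in β chains (difference 0.0566, −0.0033 to 0.117), and 3.15 and 3.14 in α chains. β chains without such a base were rare, with 0.567% (0.535% to 0.600%) of UMIs for BF10 and 0.697% (0.663% to 0.734%) for αCSF1R. The αCSF1R Trbv16 clonotype printed above, with 118 UMIs in that nucleotide form, is among them. Of β clonotypes listed in both nodes, 1.287% had no such base in BF10 and 1.246% in αCSF1R. Of those listed in only 1 node of the pair, 0.201% had none in BF10 and 0.207% in αCSF1R. The smaller BF10 share was thus seen in UMIs and not clearly in clonotypes. α chains, which have no D segment, lacked any added base in 14.1% and 14.2% of UMIs.

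**Figure D3:**
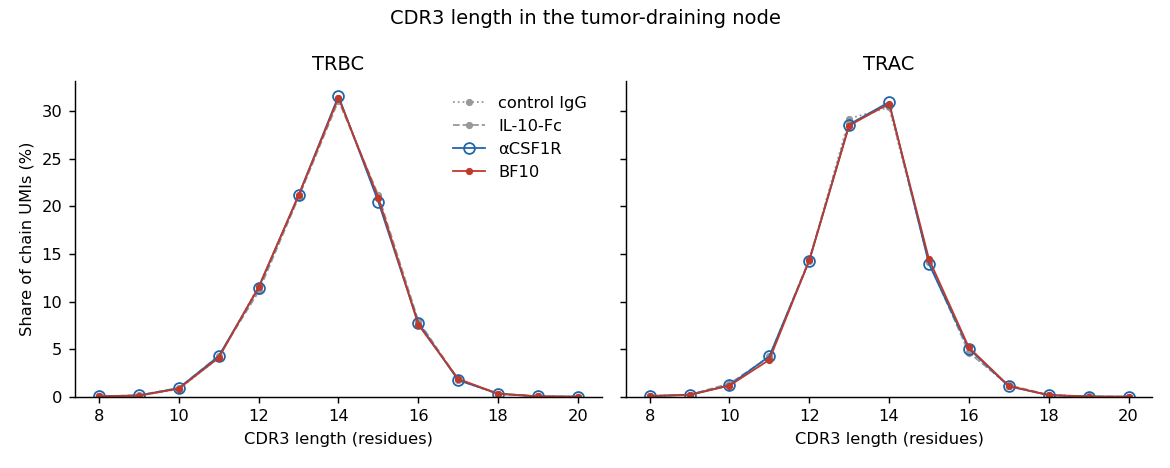
Share of chain UMIs (%, y axis) at each CDR3 length in residues (x axis) for TRBC (left) and TRAC (right), with 1 line per node library. The 4 lines lie on top of each other, and the peak at 14 residues holds 31.4% of TRBC UMIs for BF10 and 31.6% for αCSF1R.

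The few largest β clonotypes took up more of the BF10 node. Its 10 largest held 0.910% of TRBC UMIs (0.870% to 0.952%) against 0.511% (0.481% to 0.542%) for αCSF1R, a ratio of 1.78 (1.65 to 1.92). The 100 largest held 3.01% and 2.53%, a ratio of 1.19 (1.15 to 1.24), and the 1000 largest held 8.81% and 8.91%, a ratio of 0.989 (0.970 to 1.01). The difference thus lay in the first few clonotypes and was not seen deeper in the ranking. For control IgG over IL-10-Fc the ratio was 1.05 (0.965 to 1.14) for 10 and 1.13 for 100 clonotypes. In that pair the IL-10-Fc node thus had the smaller share in its 100 largest, 2.72% against 3.08% in control IgG. Below the top the order was the other way: 757 β clonotypes had at least 10 UMIs in the BF10 and 925 in the αCSF1R node, whereas 40 and 43 had at least 50. For α chains the 100 largest held 4.23% and 4.49% of UMIs, a ratio of 0.942 (0.894 to 0.993).

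The leading β clonotypes were seen in their own node alone or nearly so. Trbv12-1 with Trbj2-1 had 361 UMIs in the BF10 node, 358 of them in a single nucleotide form, and 0 of 210616 in the αCSF1R node, which allows a share of up to 0.00142%. It had 1 UMI in the BF10 spleen and none in the other libraries. Trbv13-2 with Trbj2-1, with 17 residues and 21 bases between V and J, of which 11 match Trbd2, had 241 UMIs in the BF10 node (0.118%). Trbv12-2 with Trbj2-4 had 215 UMIs there (0.105%), and neither of these was listed in any other library of the series. In the αCSF1R node, Trbv3 with Trbj2-7 had 157 UMIs and a second clonotype of the same genes had 124, and both were likewise listed nowhere else. The Trbv16 clonotype with Trbj2-4, the one without an added base, had 120 UMIs in the αCSF1R node (0.0570%), 0 in the BF10, 1 in the control IgG and 5 in the IL-10-Fc node. It alone of the 6 was found in all 4 spleens, with 2 to 9 UMIs.

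α chains behaved otherwise, in that more of the leaders were in both nodes. Of the 10 largest α clonotypes, 5 of BF10's and 7 of αCSF1R's were listed in the partner, against 2 and 2 of the 10 largest β clonotypes. Trav11 or Trav11d with Traj18, the invariant NKT chain of 15 residues, had 130 UMIs for BF10, 181 for αCSF1R, 390 in control IgG and 362 in IL-10-Fc. These were 0.233%, 0.275%, 0.384% and 0.264% of TRAC UMIs. Trav14-2 or Trav14n-2 with Traj22 had 80, 98, 121 and 214 UMIs in the same order (0.143%, 0.149%, 0.119% and 0.156%). It had 112 to 219 UMIs in 3 tumors and 18 in the αCSF1R tumor. Trav10 with Traj43 had 50, 132, 275 and 326 UMIs (0.0894%, 0.201%, 0.271% and 0.238%). Its share in the BF10 node was 0.445 (0.322 to 0.617) times that in the αCSF1R node. None of these chains had an added base in its most frequent nucleotide form. The chains seen in 1 node of the pair did have them: Trav21-dv12 with Traj52, with 4 such bases, had 74 UMIs in the BF10 node, 0 in the other nodes and 1 to 8 in the spleens, and Trav14d-1 with Traj23, with 6, had 132 UMIs in the αCSF1R node and was listed nowhere else.

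Large node clonotypes were traced to the other tissues by nucleotide sequence with V and J. Of the 100 largest β clonotypes of the BF10 node, 49 were listed in the BF10 spleen and 5 to 6 in each other spleen, and 17 in the BF10 tumor against 1 to 4 in each other tumor. Of the 100 largest of the αCSF1R node, 26 were in the αCSF1R spleen against 2 to 5 in each other spleen, and 8 in the αCSF1R tumor against 2 to 3. The libraries of the same treatment thus held more of them in both tissues, although the sources used here do not say whether the same 3 mice gave all tissues. These clonotypes made up 0.472% (0.441% to 0.505%) of TRBC UMIs in the BF10 tumor and 4.90% (4.67% to 5.13%) in the αCSF1R tumor, which held 32784 TRBC UMIs against 175080. The partner node listed 16 of BF10's and 13 of αCSF1R's. α chains were less specific, with 65 of the 100 from the BF10 node in the BF10 spleen and 40 to 43 in each other spleen, and 50 of αCSF1R's in the αCSF1R spleen and 37 to 44 in the others. In the tumors, 43 of the BF10 node's α clonotypes were in the BF10 tumor against 14 to 36 in each other tumor, but only 14 of αCSF1R's were in the αCSF1R tumor against 21 to 33. That tumor library held 23650 TRAC UMIs against 79926 to 117661 in the others.

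**Figure D4:**
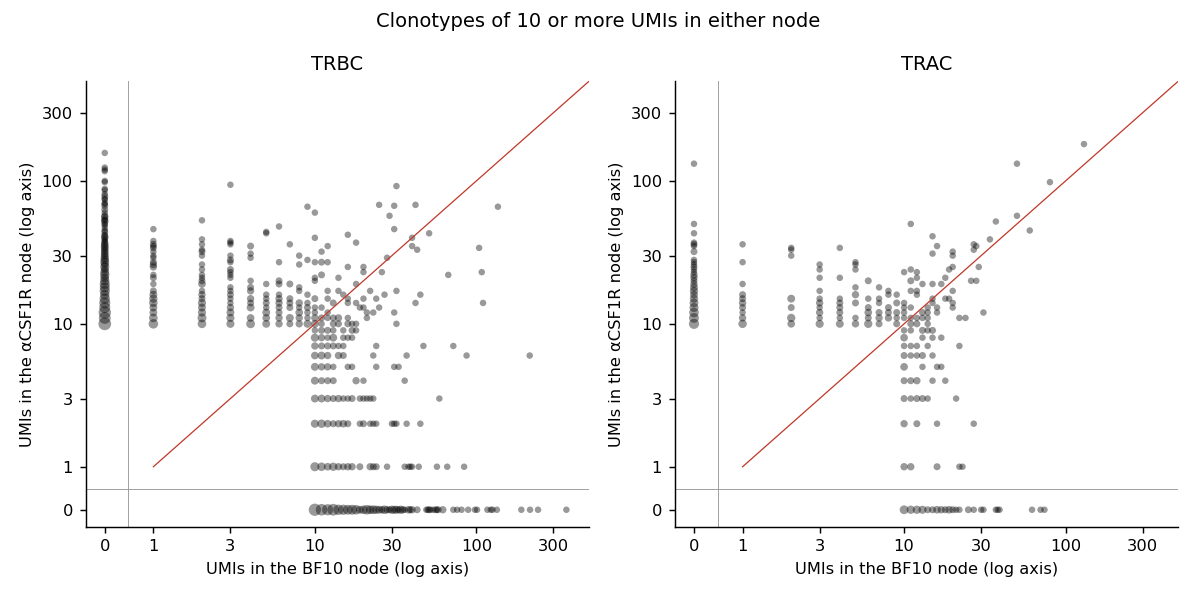
UMIs in the BF10 node (x, log axis) against UMIs in the αCSF1R node (y, log axis) for every TRBC (left) and TRAC (right) clonotype with at least 10 UMIs in either, where clonotypes at the same place share a point whose area grows with their number. Clonotypes absent from a node sit on the strips at 0, where most of the largest TRBC clonotypes lie (up to 361 UMIs for BF10 and 157 for αCSF1R), whereas the largest TRAC clonotype (130 and 181 UMIs) lies near the line of equal UMIs.

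The nodes shared 19499 β clonotypes, 14.2% of those of BF10 and 14.2% of those of αCSF1R, which held 20.79% and 20.99% of TRBC UMIs. They shared 6122 α clonotypes, 16.9% and 15.4%, which held 25.6% and 24.8% of TRAC UMIs. Of the shared β clonotypes, 3315 were also in both other nodes and 9700 (49.7%) in neither, whereas 2373 of the shared α clonotypes were in both others and 1767 (28.9%) in neither. Overlap depends on depth, so it was also computed for equal numbers of UMIs. With 124488 TRBC UMIs from each node, 10768 clonotypes would be shared by BF10 and αCSF1R (11.6% and 11.8%), 7260 by control IgG and IL-10-Fc (10.8% and 9.41%) and 8320 to 9324 by a node of each pair. The last were 9.11% to 10.1% of the clonotypes of BF10 or αCSF1R and 12.0% to 12.6% of those of control IgG or IL-10-Fc. With 55901 TRAC UMIs, 5649 would be shared by BF10 and αCSF1R (15.6% and 15.9%) and 5124 by control IgG and IL-10-Fc (16.36% and 14.98%). A node of each pair would share 5126 to 5547, which were 14.2% to 15.5% for BF10 or αCSF1R and 16.1% to 16.4% for control IgG or IL-10-Fc. With equal UMIs the number of distinct β clonotypes was 92746 and 91380 for the pair against 67360 and 77180. Reads behind each UMI were not matched: of TRBC UMIs 8.26% and 10.4% had at least 7 reads in the pair, against 40.9% and 35.3% in control IgG and IL-10-Fc, and their part in these differences was not tested.

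Shared receptors had short joints. β clonotypes in both nodes had a mean of 13.46 residues, against 13.99 for those of BF10 alone and 13.97 for those of αCSF1R alone. Their joints held 7.74 bases between V and J in each node, against 10.4 for the unshared, and in α chains 2.25 against 3.67 and 3.68. Of shared α chains 21.4% (BF10) and 20.8% (αCSF1R) had no added base, against 7.90% and 7.94% of the unshared. Several nucleotide sequences encoded the same clonotype for 28.3% of shared and 4.29% of unshared β clonotypes of BF10, with 28.4% and 4.29% for αCSF1R. Shared clonotypes also had more UMIs, with a mean of 2.18 against 1.38 in the BF10 node, and a clonotype with more UMIs can show more nucleotide forms.

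Sharing went up with clonotype size but not through the top of the β chain. Of β clonotypes with 1 UMI, 10.5% of BF10's were listed for αCSF1R and 10.3% of αCSF1R's for BF10. The share was 19.0% and 18.2% at 2 UMIs, 40.4% and 40.2% at 3 to 9 UMIs and 42.3% and 43.8% at 10 to 49 UMIs. At 50 or more UMIs it was 13 of 40 (32.5%, 20.1% to 48.0%) and 10 of 43 (23.3%, 13.2% to 37.7%). For αCSF1R this last interval lies below that of the class before it, and for BF10 they overlap. α clonotypes with 10 to 49 UMIs were listed in the partner at 68.3% and 60.0%, and those with 50 or more at 5 of 8 and 6 of 8. Only 92 β clonotypes had at least 10 UMIs in both nodes, 76 of them listed in all 4, and 64 α clonotypes did, 60 of them in all 4.

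Segments differed in how often their clonotypes were shared. Of all β clonotypes listed in either node, those with Trbv3 (9.66%) and Trbv16 (9.55%) were most often in both, and those with Trbv14 were so in 5.24%, Trbv30 in 2.10% and Trbv23 in 1.75%. By J gene the share went from 3.88% for Trbj1-5 to 9.58% for Trbj2-7. In α chains it was highest for Traj22 (14.7%) and for the families Trav19 (14.1%) and Trav14 (11.9%), and 2.47% for Trav15. Trav19 was a small family, with 540 clonotypes in either node against 10847 for Trav14.

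The β clonotypes at the highest level in both nodes had 1 to 9 bases between V and J. Trbv3 with Trbj2-7 had 136 UMIs for BF10, 66 for αCSF1R, 30 in control IgG and 149 in IL-10-Fc (0.0666%, 0.0313%, 0.0241% and 0.0805% of TRBC UMIs). It was encoded by 10 nucleotide sequences in the BF10 and 8 in the αCSF1R node. Its share was 2.13 (1.58 to 2.85) times as high for BF10 as for αCSF1R. Trbv3 with Trbj1-1, of 15 residues, had 42, 68, 36 and 5 UMIs in the same order (0.0206%, 0.0323%, 0.0289% and 0.00270%). The ratio of the pair was 0.637 (0.434 to 0.936). Trbv17 with Trbj1-1 had 51, 43, 74 and 31 UMIs (0.0250%, 0.0204%, 0.0594% and 0.0167%). Trbv16 with Trbj2-4 had 40, 40, 16 and 26 (0.0196%, 0.0190%, 0.0129% and 0.0140%). The latter 2 clonotypes were alike in the pair within counting error. Another α chain at high level in both nodes, Trav14d-3-dv8 or Trav14n-3 with Traj22, had 50, 57, 98 and 155 UMIs (0.0894%, 0.0867%, 0.0965% and 0.113% of TRAC UMIs). It had the same CDR3 as the Trav14-2 chain, letter for letter in nucleotides, so that the 2 differ by V assignment alone.

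γδ chains were more abundant in the BF10 node. γδ T cells of lymph nodes mostly lack CD8, although γ genes can also be rearranged and transcribed in αβ T cells. Their chains made up 6.34% of all UMIs (6.25% to 6.43%) for BF10, 4.96% (4.88% to 5.04%) for αCSF1R, 5.27% in control IgG and 5.49% in IL-10-Fc. The BF10 node was the highest and the αCSF1R node the lowest of the 4, a ratio of 1.28 (1.252 to 1.307). Control IgG over IL-10-Fc gave 0.960, so in that pair the IL-10-Fc node was the slightly higher one. TRGC held 4.23% and 3.42% (1.24, 1.21 to 1.27) and TRDC held 2.11% and 1.54% (1.37, 1.32 to 1.42). In the spleens γδ chains made up 2.30% for BF10 and 1.79% for αCSF1R, and in the tumors 0.898% and 8.93%. Fewer γδ cells and less receptor RNA per cell cannot be told apart, nor can more γδ and fewer αβ cells, and how the bead selection differed between the nodes was not tested.

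The difference was seen in the invariant γδ chains and, at larger ratios, in the other γδ chains. Trgv6 with Trgj1, the γ chain of an innate-like population that arises before birth, had 5356 UMIs for BF10 and 4764 for αCSF1R, 45.6% and 48.0% of TRGC, against 33.1% in control IgG and 36.04% in IL-10-Fc. Trdv4 with Trdj2, of 17 residues, led the δ chains with 2160 and 2025 UMIs, 36.8% and 45.2% of TRDC, against 28.0% and 30.3%. Of all UMIs of the library, the γ chain held 1.93% (1.88% to 1.98%) for BF10 and 1.64% (1.59% to 1.69%) for αCSF1R, and the δ chain 0.778% (0.746% to 0.812%) and 0.696% (0.667% to 0.727%). Both chains thus made up more of their kind in the pair than in control IgG or IL-10-Fc. Without them, TRGC held 2.30% and 1.78% of all UMIs (1.29, 1.247 to 1.341) and TRDC held 1.33% and 0.844% (1.58, 1.501 to 1.662). The second largest γ chain, Trgv4 with Trgj1, had 224 and 252 UMIs, and the second largest δ chain, Trdv4 with Trdj1, had 159 and 113.

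V genes of the γ and δ chains, described after their values were seen, stood farther apart than those of β and α chains. Their usage distances were 4.49% for TRGV and 10.4% for TRDV, against 5.05% and 4.80% between control IgG and IL-10-Fc. Counting alone would give 1.20% and 2.38% for these thinner chains, where it would give 0.542% for TRBV and 0.840% for TRAV. Of 9 TRGV assignments 3 were past the ratio of 5 to 4 (33.3%, as between control IgG and IL-10-Fc), among them Trgv1 with 9.87% and 7.02% of TRGC UMIs (1.41, 1.29 to 1.54) and Trgv5 with 2.10% and 1.64% (1.28, 1.05 to 1.56). The other one, assigned to Trgv2 or Trgv3, had 88 and 94 UMIs. Of 16 δ V assignments 8 were past it (50%, and 35.3% between control IgG and IL-10-Fc), all higher in BF10, while Trdv4 held 42.3% for BF10 and 52.8% for αCSF1R. Since shares of a chain add up to a whole, the largest δ clonotype was left out: then 1 assignment of the 16 was past the ratio in each direction, and Trdv4 was the lower one with 8.70% and 13.8% (0.628, 0.544 to 0.725). Trdj1 joined 61.8% of δ chains in BF10 and 53.1% in αCSF1R. γδ clonotypes in both nodes numbered 494 for TRGC, 30.6% of BF10's and 36.6% of αCSF1R's with 83.3% and 86.3% of UMIs, and 57 for TRDC, 2.22% and 3.57% with 42.9% and 52.3% of UMIs.

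Invariant α chains of other unconventional T cells were few. All chains of Trav11 or Trav11d with Traj18 had 179 UMIs for BF10 and 255 for αCSF1R, 0.320% (0.277% to 0.371%) and 0.388% (0.343% to 0.438%) of TRAC, against 0.571% in control IgG and 0.364% in IL-10-Fc. The ratio of the pair was 0.826 (0.682 to 0.999). Trav1 with Traj33, the chain of MAIT cells, had 9 and 13 UMIs, a difference not detectable at this depth, with 83 in control IgG and 59 in IL-10-Fc. In the same order these were 0.0161%, 0.0198%, 0.0817% and 0.0430% of TRAC UMIs. NKT cells of mice mostly lack CD8, and the part of such cells in the TRAC results was not tested.

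**Figure D5:**
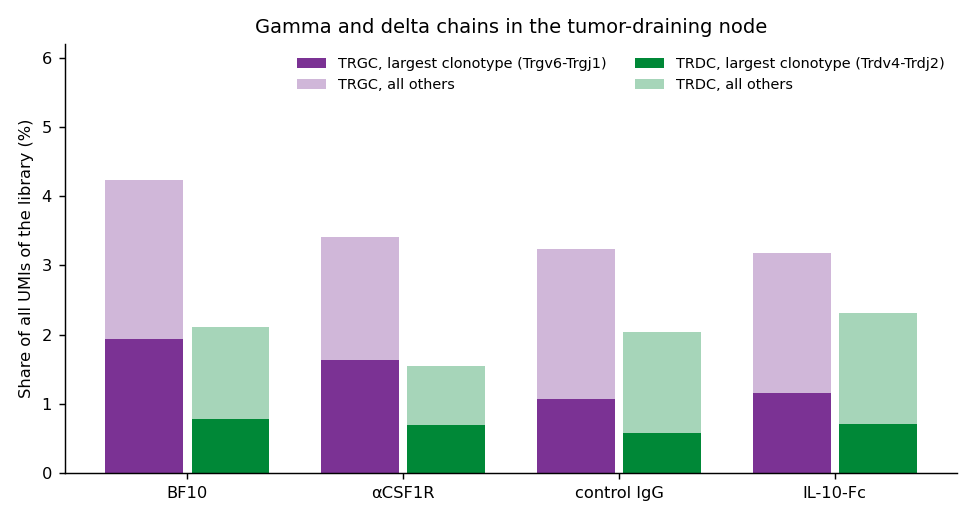
Share of all UMIs of the library (%, y axis) on TRGC (purple) and TRDC (green) in the 4 node libraries, with the largest clonotype of each chain in full color and all other clonotypes in pale color stacked on it. The pale part is larger for BF10 than for αCSF1R, at 2.30% against 1.78% for TRGC and 1.33% against 0.844% for TRDC.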

How the data were processed

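The authors prepared 12 TCR libraries with a QIAseq kit that tags each cDNA molecule with a UMI, and Qiagen's analysis portal grouped reads and assigned V region, J region and CDR3. The authors deposited raw counts: for each clonotype, its UMIs with at least 3 reads and with higher minimums up to 7. The submitters' processing notes name mm10, and the error correction and germline set of the portal are not given in the sources used here. Groups follow the sample labels.

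Counts were summed per V, J and CDR3 amino acid sequence, and 265 clonotypes of the pair with an undetermined residue were kept. A V or J gene or family was compared where it held at least 0.1% of chain UMIs in either node, and called at a share ratio of at least 5 to 4 in either direction. Each library pools 3 mice, so no test across samples was possible. Intervals are 95% Wilson, Newcombe or log (Katz) intervals, mean lengths have SEs over UMIs grouped by clonotype, and 0 UMIs was bounded at 3. The place where CDR3 starts or ends in each GRCm38 gene was found by 9 matching bases (38 of 40 TRB and 148 of 157 TRA genes listed). In each CDR3 the longest exact match from either end, of any length, was taken as germline. Named genes were the 6 most used and the 4 with the most extreme ratios each way per kind, with all TRBJ genes. Named clonotypes were the 3 largest of each library, the 4 with the largest smaller share over the pair, and the 2 largest for TRGC and TRDC. Members, genes and lists were chosen with earlier results of these data known. Scripts used Python 3.11.15, pandas 2.3.3, numpy 2.4.6, scipy 1.17.1 and samtools 1.23.1 and were tested on simulated data. Alternatives were other minimums of reads or UMIs, clonotypes counted once, the largest clonotypes left out, other definitions of a clonotype or V region, and equal numbers of UMIs.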

Additional observations from a re-analysis of the deposited data

How the results depend on the processing

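Of the summary values recomputed under the alternatives, 22 stayed near the value reported, 27 moved by more than its counting error and 2 that had a direction turned it, and the causes were not tested. The TRBV usage distance was 3.97% with UMIs of at least 7 reads, 2.30% with each clonotype counted once, 4.14% with clonotypes of at least 2 UMIs and 2.48% without the 100 largest clonotypes of each library. The TRBJ distance was 1.91% with at least 2 UMIs. The TRAV distance was 1.958% with each clonotype counted once, 3.61% with at least 2 UMIs and 5.37% with V assignments as listed, where 21 were past the ratio. The TRAJ distance was 5.52% with at least 7 reads, 1.502% with each clonotype counted once and 4.45% with at least 2 UMIs. Genes past the ratio numbered 2 (TRBV), 2 (TRAV) and 8 (TRAJ) with at least 7 reads, and 2, 3 and 5 with at least 2 UMIs. The difference of mean β CDR3 length, among those that moved, changed sign to −0.0101 residues (−0.0480 to 0.0277) with at least 7 reads, and 0 lay within its interval before and after. The ratio for the largest β clonotypes was 1.78 for 10 and turned to 0.989 (0.970 to 1.01) for 1000, and that for the 100 largest α clonotypes turned to 1.17 (1.003 to 1.369) with at least 7 reads. Shared β clonotypes made up 4.67% of BF10's with at least 7 reads, 4.93% by nucleotides, 23.4% by CDR3 amino acids alone, 14.8% with at least 2 UMIs in both and 11.6% with equal numbers of UMIs. For α chains the values were 6.50%, 10.1%, 34.8%, 17.8% and 15.6% in that order. The γδ ratio was 1.41 with at least 7 reads and 1.41 without the 2 largest clonotypes of each chain. With denominators chosen after seeing the data, it was 1.22 for TRGC over TRBC and 1.35 for TRDC over TRBC.

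No paired analysis was possible because the labels give no replicate numbers and each treatment has 1 node library. Mouse-to-mouse spread is therefore unknown, and no interval here covers it. Read depth is a further limit: with at least 7 reads, 8.26% of TRBC UMIs in BF10 and 10.4% in αCSF1R remain. Single-UMI clonotypes made up 80.59% and 78.63% of β and 74.7% and 71.9% of α clonotypes by nucleotides, so most overlaps rest on clonotypes near the limit of detection.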
